A study of Mus musculus with 157 samples.

Results

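The genes described here are the mouse zinc finger genes whose symbols run from Zfp700 to Zfp999, with or without a trailing letter. They were chosen by symbol alone, with no measured value, and 139 of the 36102 genes in the deposited read tables matched. The tables hold 261 other genes with a Zfp symbol, which serve as the closest set for comparison. RefSeq's mouse gene table listed 136 of the 139, of which 135 are protein coding and Zfp783 is a long non-coding RNA.

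Zinc finger proteins of this kind bind DNA through arrays of C2H2 fingers, each of which reads a few bases. Many mouse members also carry a KRAB box, a short domain that recruits the corepressor TRIM28, which in turn brings the histone methyltransferase SETDB1 and heterochromatin proteins to the bound site. Most such genes lie in clusters of near-identical copies that arose by tandem duplication, and several silence endogenous retroviruses.

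The series measured RNA in mouse blood and marrow cell types and its N6-methyladenosine (m6A), a base modification placed on messenger RNA by a complex whose catalytic subunit is METTL3. Untreated wild-type cells of 16 types were profiled as total RNA (input) and after immunoprecipitation with an anti-m6A antibody (IP), with 2 libraries of each kind per type. The 9 stem and progenitor types were long-term and short-term haematopoietic stem cells (LT.HSC, ST.HSC), MPP, LMPP, CLP, CMP, GMP, MEP and MkP, and the 7 mature types were Neutrophil, Monocyte, Erythroid, DC, B_cell, CD8 and CD4. Further libraries came from 7 types of untreated Mettl3 -/- and wild-type cells (input and IP, 2 libraries per type and genotype), from untreated Igf2bp2 -/- and wild-type LT.HSC (2 each; IGF2BP2 binds m6A-marked messages), from wild-type cells of 6 types given 4-thiouridine (4sU) for 3 h, and from wild-type LT.HSC and MkP given 4sU for 24 h and then chased for 0.5 to 24 h. The labels give no strain, age or promoter for the deletions, and do not say whether libraries of a group came from separate animals, so every p-value measures the spread between these libraries only.

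Reads of the input libraries were recovered from the normalised values, except for the second wild-type GMP library. They ranged from 8225437 to 21530672 in 31 wild-type inputs and from 3420411 to 20229330 in the Mettl3 inputs. Deposited counts per library ranged from 10759773 to 24623517 in the wild-type IPs, from 819087 to 22918683 in the Mettl3 IPs and from 4681219 to 19984167 in the Igf2bp2 set. Of 43 textbook marker entries for 12 of the cell types, 39 had their own type among the 3 highest and 19 had it highest. No MEP, Neutrophil, CLP or CD4 marker was highest in its own type. Input values are the authors' normalised counts, on which 1 read was worth between 0.412 and 11.6 units, with 7.97 and 11.6 units in the 2 Monocyte libraries, so low values are coarse there. Gene lengths were not used, so levels are compared between samples of 1 gene and not between genes.

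Some libraries went against their labels on part of their markers. In input, Cd4 stood at 7.77 and 13.7 normalised counts in the libraries labelled CD4 and at 1510 and 1482 in those labelled CD8, while Cd8a stood at 12002 and 11930 in the former and at 80.3 and 30.9 in the latter. The IPs ran the same way, with Cd8a at 11016 and 11769 counts in the libraries labelled CD4 and at 15 and 320 in those labelled CD8, although the second CD4 IP also held 2832 counts of Cd4. Each of the neutrophil markers was higher in the input libraries labelled Monocyte than in those labelled Neutrophil, Ly6g for example at 68119 and 82901 against 16746 and 18535. In IP, Ly6g was the lower in Monocyte, at 15525 and 15939 against 21004 and 22669. CD4, CD8 and Monocyte are therefore used below as labels only, and results that rest on them are also given without these 3 types.

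A few sequences show how closely some members resemble each other. The promoter, taken as 250 bases before to 50 after the RefSeq start site (GRCm38.p6), was found for 119 members. Among the 7021 pairs of these promoters, 32 pairs shared an identical run of at least 50 bases, and the members of each such pair lay in the same genomic block. They involved 21 members. Zfp955a and Zfp955b were identical over all 300 bases. Zfp943 (chr17:21962309-21962608, plus strand) and Zfp758 (chr17:22361213-22361512, plus strand) shared the 248 bases in capitals below, and are shown because both rose in mature cells.
Zfp943: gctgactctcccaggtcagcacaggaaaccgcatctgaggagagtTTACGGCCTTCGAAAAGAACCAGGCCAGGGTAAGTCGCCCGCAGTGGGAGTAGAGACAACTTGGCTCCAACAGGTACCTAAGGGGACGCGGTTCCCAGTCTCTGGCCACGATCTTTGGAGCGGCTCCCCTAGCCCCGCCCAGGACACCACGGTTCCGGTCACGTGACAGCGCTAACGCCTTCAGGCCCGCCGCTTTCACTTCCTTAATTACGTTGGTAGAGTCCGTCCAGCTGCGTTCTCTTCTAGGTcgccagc
Zfp758: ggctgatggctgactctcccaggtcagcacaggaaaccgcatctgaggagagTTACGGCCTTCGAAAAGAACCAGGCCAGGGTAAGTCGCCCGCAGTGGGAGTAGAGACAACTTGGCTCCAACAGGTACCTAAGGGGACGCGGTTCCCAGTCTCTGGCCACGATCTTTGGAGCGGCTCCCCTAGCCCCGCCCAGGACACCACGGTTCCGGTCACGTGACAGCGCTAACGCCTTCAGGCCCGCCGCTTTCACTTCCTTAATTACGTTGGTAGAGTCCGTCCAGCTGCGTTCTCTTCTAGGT
Reads from such copies may have been split or shared in the authors' counting, so the values of members in these clusters are uncertain.

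The pentamer CCAAT, searched on both strands, was the shortest of the motifs searched, so it would be seen most often for its length alone. Promoters that share identical runs were each counted. It occurred in 76 of 119 member promoters (63.9%), against 40.4% of the other Zfp promoters and 37.9% of all 27025 promoters of the same length. The GATA letters AGATAA occurred in 9.24% of member promoters and 11.4% of all. Member promoters held a median of 9 CpG dinucleotides, between the 16 of other Zfp promoters and the 7 of all promoters. Zfp773 (chr7:7136706-7137005, minus strand) and Zfp820 (chr17:21845710-21846009, minus strand) had among the largest rises and falls in mature cells, and each had a CCAAT match, in capitals, within 50 bases before its start. Of the 12 members named below as highest or lowest in mature cells, 10 had a promoter here and 4 of these held a CCAAT match. The promoters of Zfp758, Zfp943, Zfp786 and Zfp783 held none. A match is a description of the letters and not of a bound site.
Zfp773: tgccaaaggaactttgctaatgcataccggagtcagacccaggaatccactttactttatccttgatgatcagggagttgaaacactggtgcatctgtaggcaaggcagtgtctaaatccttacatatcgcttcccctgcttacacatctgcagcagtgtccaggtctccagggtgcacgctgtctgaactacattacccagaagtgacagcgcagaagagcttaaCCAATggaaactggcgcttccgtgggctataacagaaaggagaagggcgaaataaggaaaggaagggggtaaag
Zfp820: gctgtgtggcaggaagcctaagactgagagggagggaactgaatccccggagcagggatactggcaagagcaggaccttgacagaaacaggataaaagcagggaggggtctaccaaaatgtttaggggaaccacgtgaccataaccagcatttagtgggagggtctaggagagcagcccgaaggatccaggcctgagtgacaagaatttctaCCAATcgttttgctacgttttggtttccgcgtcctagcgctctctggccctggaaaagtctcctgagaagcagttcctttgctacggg

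Of the 139 members, 122 reached 10 normalised counts in at least 2 of the 32 wild-type input libraries and were tested. The other 17 were Zfp711, Zfp735, Zfp804b, Zfp819, Zfp853, Zfp935, Zfp936, Zfp957, Zfp966, Zfp977, Zfp980, Zfp981 and Zfp985 to Zfp989. Zfp804b was at 0 in every input library, and the highest single value among the 17 was 14.8, in Zfp987. Zfp819, which represses retroelements in embryonic stem cells, and Zfp711, an X-linked gene tied to intellectual disability, were thus too low to test. In what follows members are set beside the genes that passed the same filter.

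Most members differed among the 16 cell types. In limma's moderated F test with Benjamini-Hochberg adjustment on log2(value + 1), 112 of 122 members passed an adjusted p of 0.05, where 92.8% of all genes tested did. Among the other Zfp genes 222 of 241 passed. The highest type lay at least 2 log2 units above the median type in 27 members (22.1%), against 48.8% of all genes tested. Without the CD4, CD8 and Monocyte libraries it did so in 22 of 122 members, against 43.5% of all genes. In bulk samples such as these, fewer expressing cells and less RNA per cell cannot be told apart.

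The types labelled as lymphocytes most often held the highest level. Libraries labelled B_cell, CD4 or CD8 held the maximum of 54 of 122 members (44.3%), where they did so for 25.9% of all genes tested. B_cell was highest for 22 members, CD4 for 20, CD8 for 12 and LT.HSC for 15. Without CD4, CD8 and Monocyte, B_cell was highest for 32 of 122 members (26.2%, against 18.7% of all genes).

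Libraries labelled Monocyte held the minimum of 33 members (27.0%, against 12.7% of all genes), MkP of 25 (17.3% of all genes) and Erythroid of 20 (16.4%, against 8.33%). The coarse scale of the Monocyte libraries moved with the first of these counts, and its part in it was not tested. With CD4, CD8 and Monocyte left out, the minimum lay in MkP for 27 members (19.2% of all genes), in Erythroid for 25 (10.3%) and in Neutrophil for 25 (10.0%).

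Zfp773 stood furthest above its own median type, by 6.32 log2 units. Its Erythroid libraries held 13494 and 15267 normalised counts, its Neutrophil libraries 2879 and 3096 and those labelled Monocyte 1274 and 1906. The B_cell libraries were lowest, and no library of the other 15 types reached the Erythroid values. Zfp978 was next (5.16 units), with 68.1 and 30.9 in the libraries labelled CD8 and 0 in those labelled CD4 and in DC. Zfp781 peaked in the libraries labelled CD4 at 53.1 and 13.7, and Zfp872 in DC at 69.6 and 51.4. Zfp804a, whose human counterpart is a schizophrenia risk gene, peaked in the libraries labelled Monocyte at 23.9 and 23.1, which there equal 2 or 3 reads.

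Zfp706, a small zinc finger protein linked to the exit of embryonic stem cells from self-renewal, had the most reads of any member, with a mean of 6739 normalised counts over the 32 libraries. Its B_cell libraries held 15261 and 18786 and its GMP libraries 16424 and 9886. The Erythroid libraries held 2814 and 2856, the lowest of the 16 types. The next most read members were Zfp773 (mean 1368), Zfp950 (598), Zfp830 (487), Zfp800 (474), Zfp771 (446), Zfp825 (428), Zfp780b (398), Zfp710 (359) and Zfp871 (341).

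**Figure D1:**
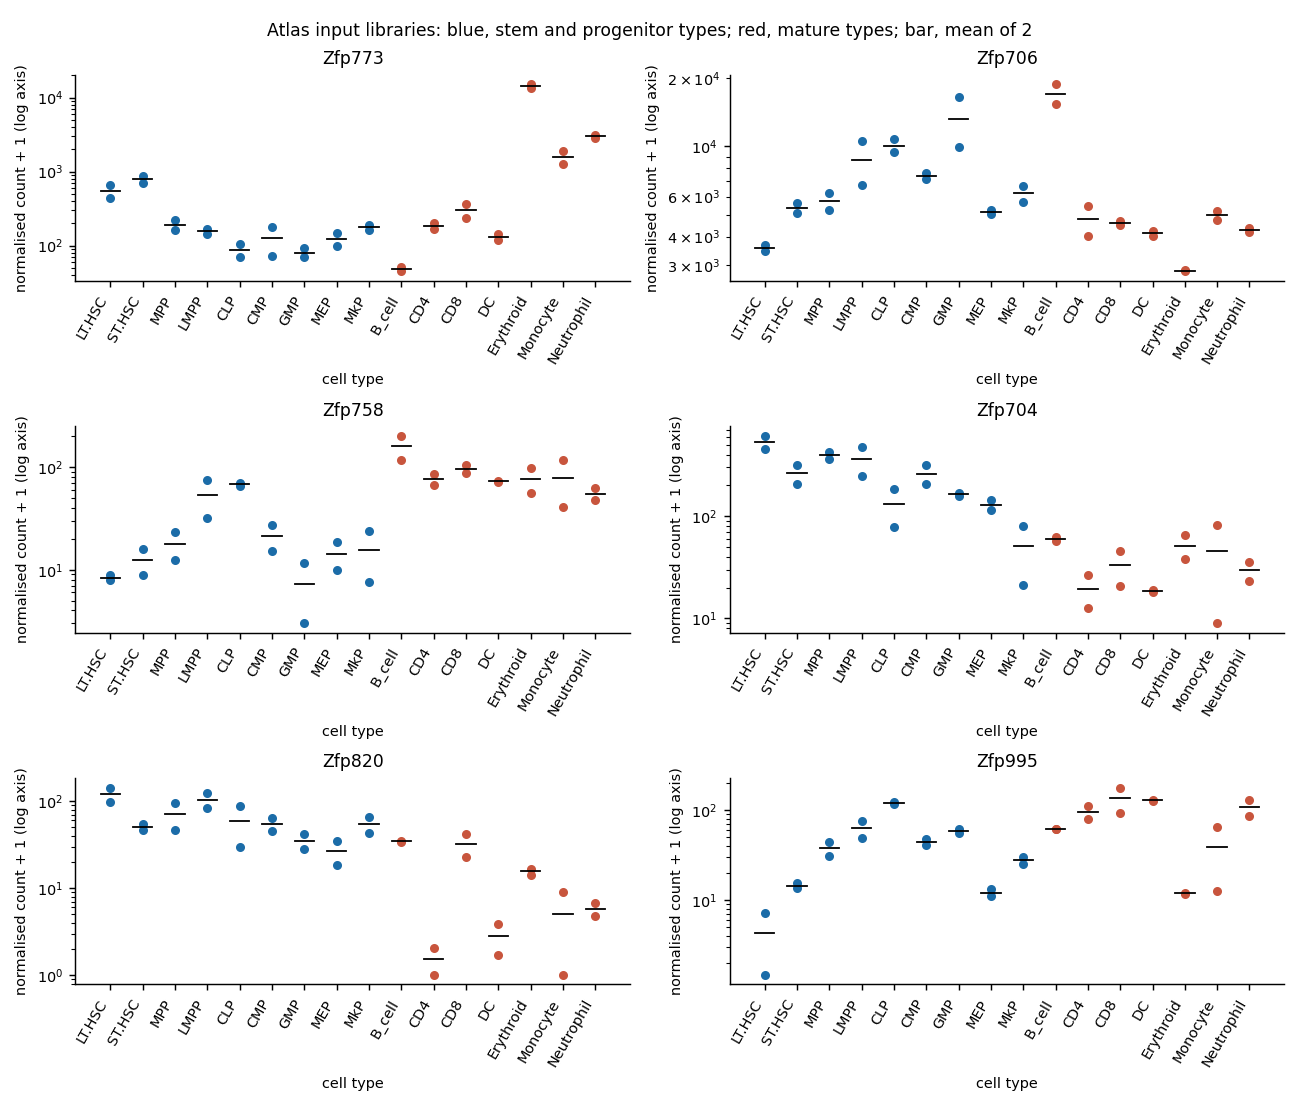
Normalised count + 1 (log axis) of 6 members in each of the 32 wild-type input libraries, by labelled cell type, with dots for the 2 libraries and a bar at their mean. Blue marks stem and progenitor types and red mature types. Zfp773 is highest in Erythroid, Zfp706 in B_cell and GMP, and Zfp995 is lowest in LT.HSC.

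Mature types were compared with stem and progenitor types as the difference between the mean of the 7 and the mean of the 9 type means. Members split about evenly: 40 of 122 (32.8%) were higher in mature types and 35 (28.7%) lower, where 39.4% of all genes tested were higher and 29.6% lower. The other Zfp genes leaned the other way, with 65 of 241 higher and 92 lower. The median difference was 0.05 log2 units for members, -0.14 for the other Zfp genes and 0.16 for all genes tested. Without the Erythroid and Monocyte libraries the members' split became 59 of 120 higher and 26 lower (41.3% and 30.0% of all genes), and with trimmed-mean scaling of the libraries 35 higher and 41 lower (36.5% and 32.4% of all genes). Without CD4, CD8 and Monocyte it became 35 of 118 higher and 36 lower (36.2% and 27.8% of all genes). Which of the 2 counts was larger thus changed between settings.

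Zfp758 rose most. Its stem and progenitor libraries ranged from 2.00 through a median of 14.6 to 74.2, and its mature libraries from 39.8 through 78.9 to 202. Both CLP libraries and 1 LMPP library reached the mature range and the other 7 early types did not. The log2 difference was 2.25 (SE 0.24, limma adjusted p = 1.16e-08). Zfp943, its near-identical neighbour at the promoter, ranged from 10.0 through 21.2 to 119 early and from 23.7 through 71.4 to 132 in mature types, a difference of 1.37 (SE 0.19, adjusted p = 1e-06). Over the 16 type means the levels of Zfp758 and Zfp943 had a Pearson correlation of 0.88, a description of 2 genes whose reads may be shared.

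Zfp964 rose by 1.98 log2 units (SE 0.19, limma adjusted p = 1.34e-09), from a median of 16.1 (range 2.18 to 66.4) to one of 60.1 (range 12.5 to 251). Its 2 highest libraries were those labelled CD4, at 192 and 251. Zfp773 rose by 1.69 (SE 0.13, adjusted p = 2.13e-11), from a median of 161 (range 68.0 to 881) to one of 299.6 (range 43.8 to 15267), although its B_cell libraries lay below every early library. Zfp827, a protein that recruits the NuRD chromatin remodeller to telomeres, rose by 1.37 (SE 0.20, adjusted p = 2.48e-06), with its 2 highest values in B_cell at 117 and 188. Zfp831 rose by 1.36 (SE 0.27, adjusted p = 9.54e-05), from a median of 22.3 to one of 42.2, with libraries at 0 on both sides, and lost its call without CD4, CD8 and Monocyte (0.76).

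Zfp820 fell most. Its early libraries ranged from 17.3 through 49.5 to 142 and its mature libraries from 0 through 6.88 to 40.6, a log2 difference of -2.94 (SE 0.27, limma adjusted p = 8.82e-10). The libraries labelled CD4, DC, Erythroid, Monocyte and Neutrophil lay below every early library, while those labelled B_cell and CD8 overlapped them. Zfp786 fell by 2.91 (SE 0.38, adjusted p = 3.8e-07), from a median of 15.5 to one of 0.357. Zfp704 fell by 2.71 (SE 0.25, adjusted p = 1.1e-09), from 206 (range 20.4 to 609.9) to 30.0 (range 7.97 to 80.9), and early levels were highest in LT.HSC and lowest in MkP.

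Zfp939 fell by 2.44 (SE 0.31, limma adjusted p = 2.49e-07), Zfp768 by 2.34 (SE 0.28, adjusted p = 6.48e-08) and Zfp783 by 2.17 (SE 0.31, adjusted p = 1.68e-06). The long non-coding Zfp783 ranged from 43.1 through 179 to 406 in early libraries and from 0 through 54.6 to 99.0 in mature ones. All 12 members named here as highest or lowest kept their call when each of the 32 libraries was left out in turn, and without CD4, CD8 and Monocyte all but Zfp831 kept direction and call. In none of the 75 called members were the 2 sets of libraries free of overlap, a count that was not made for all genes.

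Among members with a role known from elsewhere, Zfp800 rose by 0.77 (SE 0.11, limma adjusted p = 9.55e-07) and was highest in an Erythroid library at 1030.3. Zfp830, a nuclear protein needed for messenger RNA splicing, rose by 0.40 (adjusted p = 0.00325), Zfp710 by 0.33 (adjusted p = 0.0321) and Zfp809, which silences murine leukaemia virus by binding its primer binding site, by 0.28 (adjusted p = 0.0208). Zfp777 fell by 1.54 (adjusted p = 8.47e-05), Zfp932, a KRAB protein that binds endogenous retroviruses, by 0.53 (adjusted p = 0.00166) and Zfp706 by 0.39 (adjusted p = 0.00147). Zfp703, Zfp746, Zfp750 and Zfp787 did not pass; Zfp746, also known as PARIS, had a median of 86.8 in early and 81.9 in mature libraries.

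**Figure D2:**
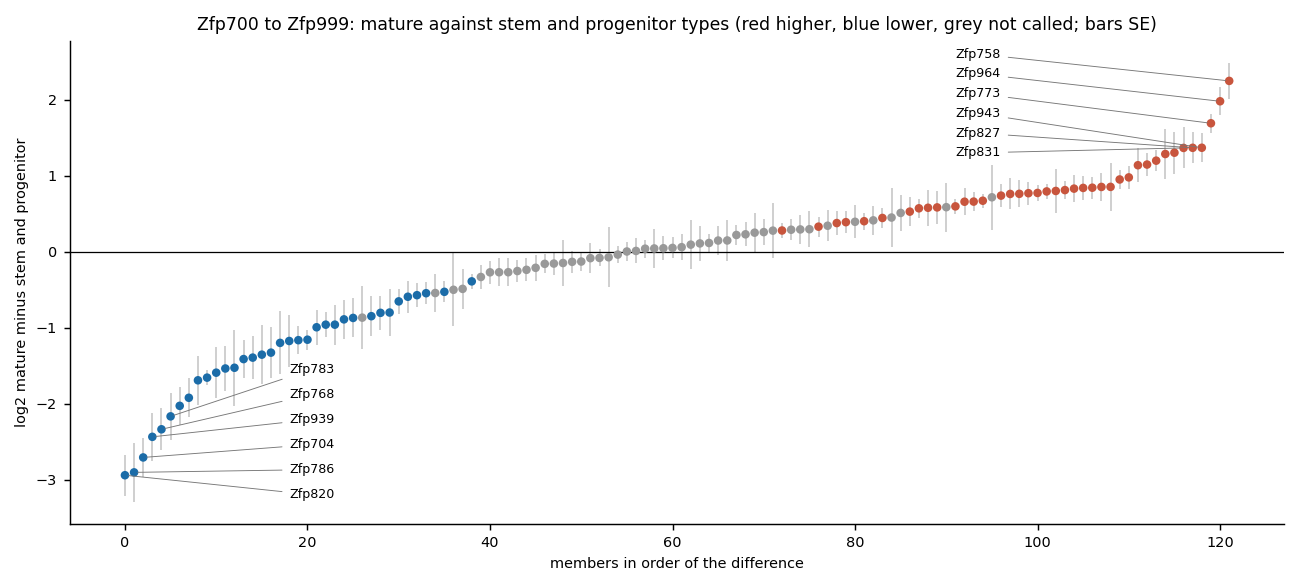
Log2 difference between mature and stem and progenitor types (vertical axis) for the 122 members tested, in order of size (horizontal axis), with bars for the standard error. Red marks the 40 members called higher, blue the 35 called lower and grey the rest. The named members run from Zfp820 at -2.94 to Zfp758 at 2.25.

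Members were also grouped by position. Those within 1 Mb of each other on a chromosome were joined into blocks, and 8 blocks held at least 5. On chromosome 13 (chr13:67038594-67683512), 6 of 10 members were higher in mature types and 1 lower, with a median of 0.67. On chromosome 6 (chr6:47815536-48621548), 5 of the 6 members Zfp786, Zfp783, Zfp956, Zfp777, Zfp746 and Zfp775 were lower and none higher, with a median of -1.35.

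Several other blocks were mixed. The 13 members at chr17:21565816-22867309, which include Zfp758, Zfp943 and Zfp820, split into 5 higher and 4 lower, and the 8 at chr17:32765496-33307239 into 3 higher and 4 lower. The 14 members at chr4:145510759-147849126, of which 9 were tested, gave 3 higher and 2 lower. The 10 at chr2:174598682-178078425, of which 9 were tested, gave 2 higher and 2 lower. The 8 at chr7:41633531-43618279, of which 5 were tested, gave 0 higher and 2 lower. The 6 at chr8:69209018-69774911 gave 1 higher and 0 lower. Over the 16 type means, 290 pairs of members in the same block had a median Pearson correlation of 0.34, and 6970 pairs in different blocks one of 0.19. In 21 of the 32 pairs with shared promoter runs both members were tested, and these are among the former. The part of reads shared between copies was not tested.

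LT.HSC were then compared with the mean of the other 15 types. By limma, 27 of 122 members were higher (22.1%, where 22.8% of all genes tested were) and 6 lower (4.92%, where 17.5% were). The other Zfp genes gave 69 of 241 higher and 12 lower. Median differences were 0.32 log2 units for members, 0.53 for other Zfp genes and 0.17 for all genes tested. The count of higher members fell without the first LT.HSC library, and the share of all genes in that fit is not given here. Such a fit leaves 1 LT.HSC library, which is then assumed to vary like the libraries of the other types. Without CD4, CD8 and Monocyte, 34 of 118 were higher (25.9% of all genes) and 6 lower (17.9%).

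Zfp995 was the member furthest below the other types. Its LT.HSC libraries held 0.461 and 6.19 normalised counts, and the other 30 ranged from 9.98 through 57.2 to 176, with no overlap. The difference was -3.85 log2 units (SE 0.46, limma adjusted p = 5.71e-07). Zfp758 (6.92 and 7.84 against a median of 50.9) fell by 2.15 (SE 0.49, adjusted p = 0.00126), with 1 GMP and 1 MkP library lower still. Zfp944 (28.6 and 52.8 against 96.0), Zfp951 (51.7 and 34.6 against 91.3), Zfp712 (0 and 0 against 2.72) and Zfp706 (3671 and 3456 against 5357) were also lower. Each of these last 4 lost its call without 1 of the LT.HSC libraries, Zfp712 also with a pseudocount of 10.

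Zfp704 had 449 and 609.9 in LT.HSC against a range of 7.97 through 78.6 to 476, a difference of 2.76 (SE 0.52, limma adjusted p = 0.000179). Zfp820 had 142 and 95.7 against a range of 0 through 33.2 to 122, a difference of 2.53 (SE 0.56, adjusted p = 0.000873). Both kept the call without either LT.HSC library, and both overlapped the other types. Zfp786 (45.2 and 30.5, others at most 28.5) and Zfp708 (56.3 and 37.5, others at most 28.5), a KRAB protein that binds a retrotransposon family, did not overlap the other types, with differences of 2.83 (adjusted p = 0.00607) and 2.68 (adjusted p = 0.00406).

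Zfp786 and Zfp708 lost the call without the first LT.HSC library, and Zfp939 (28.1 and 72.6, difference 2.88, adjusted p = 0.00102) and Zfp982 (11.1 and 25.2, difference 2.53, adjusted p = 0.000542) without the second, by the same limma test. Of the 33 called members, 5 had LT.HSC libraries wholly outside the range of the others, a count that was not made for all genes. Zfp809 was higher in LT.HSC by 1.09 (limma adjusted p = 0.000258), at 511 and 397 against a median of 215 in the other types, and Zfp827 by 1.53 (adjusted p = 0.00548).

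The corepressor machinery that KRAB zinc fingers use was followed as a list of 20 genes, all of which were tested. In mature types 5 were higher and 8 lower, beside 39.4% and 29.6% of all genes tested. Trim28, the corepressor itself, was lower by limma (log2 difference -1.79, SE 0.11, adjusted p = 8.03e-13), as were Uhrf1 (-1.16) and Hdac2 (-0.87). The HUSH-complex genes Tasor (0.99) and Mphosph8 (0.48) and the SETDB1 partner Atf7ip (1.35) were higher. By type mean, however, Uhrf1 was highest in Erythroid, a mature type, at 4282 normalised counts. Hdac2 was higher in Erythroid (1299) than in any type but MkP (1651). Atf7ip was highest in Erythroid (7942) and DC (6456). In LT.HSC 5 were higher, among them Morc2a (1.60), Dnmt3a (1.19) and Trim28 (1.00), and 2 lower, Hdac1 (-0.98) and Pphln1 (-0.70), beside 22.8% and 17.5% of all genes.

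m6A enrichment was read as log2 of the IP minus log2 of the input. Input and IP tables were normalised separately, so a level set across them is relative to the other genes. Within each cell type a member was therefore placed against all other genes of like input level, in 20 bins. On that scale members sat slightly above other genes: the median of the members' means over 16 types was 0.22 log2 units, and 75 of 122 (61.5%) were above 0. For the other Zfp genes the median was 0.05 (51.9% above 0) and for all other genes -0.03 (49.2%). Without CD4, CD8 and Monocyte the members' median was 0.20, with 62.3% above 0, and that of all other genes -0.01 (49.6%). With an input of at least 50 normalised counts the members' median was 0.11.

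The median by cell type was highest in ST.HSC (0.52), Monocyte (0.51), LT.HSC (0.48), MPP (0.47) and MEP (0.36). It lay near 0 in the types labelled CD4 (0.00), CD8 (0.02) and B_cell (0.03), and at -0.06 in MkP. With either replicate alone the LT.HSC median was 0.17 or 0.34 and the ST.HSC median 0.36 or 0.58, while in LMPP (0.09 or -0.18) and MkP (-0.14 or 0.02) the sign changed between replicates. The spread among members was wider than these shifts in every type: the middle 50% ran from -0.94 to 1.10 in LT.HSC and from -1.44 to 1.37 in CD8.

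Zfp871 had the highest mean enrichment against like genes, at 1.96 (SD over types 0.53), and was above 0 in all 16 types. In LT.HSC its input held 370 and 437 normalised counts and its IP 2082 and 3899 counts. Zfp969 (1.63), Zfp993 (1.59), Zfp703 (1.46), Zfp715 (1.41) and Zfp991 (1.40) followed. Altogether 9 members were above 0 in all 16 types (7.38%, where 9.89% of other genes were): Zfp871, Zfp993, Zfp715, Zfp992, Zfp984, Zfp746, Zfp710, Zfp869 and Zfp706.

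At the other end 5 members were below 0 in all 16 types (4.10%, where 8.36% of other genes were): Zfp830, Zfp771, Zfp707, Zfp773 and Zfp784. The lowest means were those of Zfp784 (-5.71), Zfp773 (-1.88), Zfp707 (-1.85), Zfp771 (-1.82), Zfp775 (-1.78) and Zfp768 (-1.78). Zfp773, so abundant in Erythroid input, had 593 and 634 IP counts there. Zfp784 was at 0 in 25 of the 32 IP libraries and never above 15, while its input reached 336, a contrast between the tables whose cause was not tested.

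**Figure D3:**
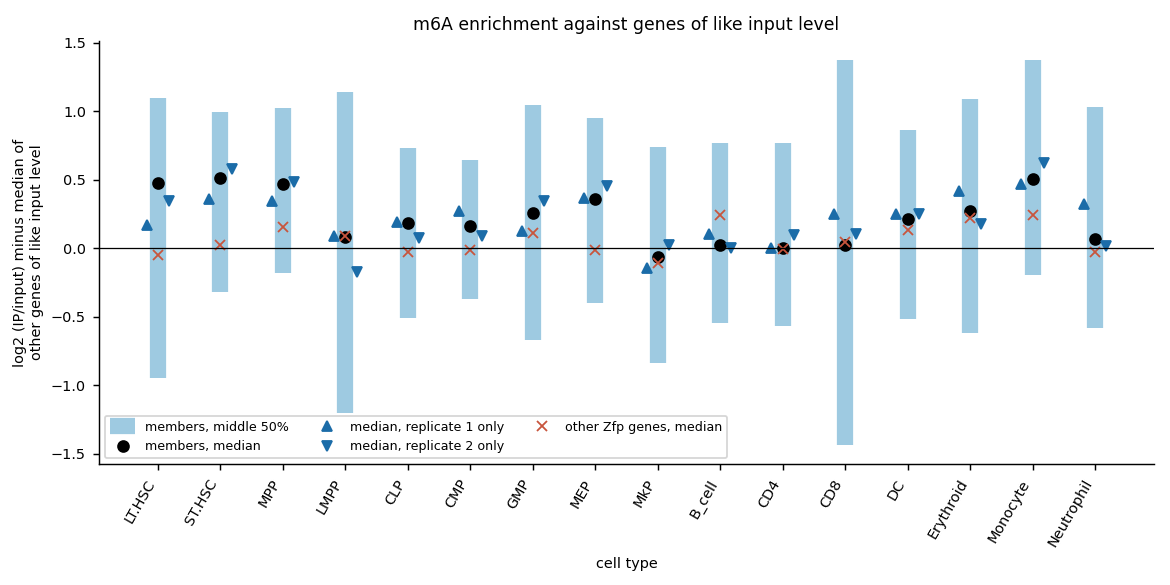
Log2 IP minus input of the 122 members less the median of other genes of like input level (vertical axis) in the 16 cell types. Bars span the middle 50% of members, black dots mark their median, triangles the median from 1 replicate alone and crosses the median of the other Zfp genes. Medians are highest in ST.HSC, Monocyte, LT.HSC and MPP and near 0 in B_cell and the types labelled CD4 and CD8.

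Enrichment differed among the 16 types in 26 of 122 members by limma's F test, where 25.1% of all genes tested did. The count of members rose without the first CD8 IP library and without the first LMPP IP library. The share of all genes in those fits is not given here. Between mature and early types, limma called no member higher (1.46% of all genes tested were) and 7 lower (5.74%, where 5.91% of all genes were). At an unadjusted p under 0.05 in either direction there were 29 of 122 members and 3601 of all 17165 genes tested. The median difference was -0.20 for members and -0.12 for all genes tested. These counts changed with the libraries used. Without CD4, CD8 and Monocyte, enrichment differed among types in 16 of 118 members (15.1% of all genes), and 3 members were lower in mature types (1.88% of all genes). Without Erythroid and Monocyte, it differed among types in 20 of 120 members (19.6% of all genes), and 12 were lower in mature types (5.36% of all genes). Such fits also hold fewer libraries, and the reason for the changes was not tested.

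Zfp800 had the lowest adjusted p. In LT.HSC its input held 278 and 322 normalised counts and its IP 1040 and 1025 counts, whereas in the libraries labelled CD8 the input held 998 and 653 and the IP 286 and 118. Its difference was -1.13 log2 units (SE 0.18, limma adjusted p = 5.58e-05). Zfp758, higher in mature input, was lower in enrichment by 1.27 (SE 0.33, adjusted p = 0.0107). Its type means ran from 0.84 to 4.22 early and from 0.66 to 2.17 in mature types.

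Zfp976 fell by 1.75 (SE 0.48, limma adjusted p = 0.0181), Zfp791 by 1.5 (SE 0.43, adjusted p = 0.0224), Zfp941 by 1.00 (adjusted p = 0.0285) and Zfp930 by 0.95 (adjusted p = 0.0278). Zfp770 fell by 1.06 (SE 0.30, adjusted p = 0.0228), and its mature type means (0.70 to 1.67) lay below all early ones (1.69 to 3.67), but it lost the call without the first Monocyte IP library. Without CD4, CD8 and Monocyte, none of Zfp800 (-0.40), Zfp758 (-1.34), Zfp976 (-1.23), Zfp791 (-0.49), Zfp941 (-0.47) and Zfp770 (-1.02) kept its call. More members were lower without the first CD8 IP library, a fit for which the share of all genes is not given here. Among the 20 corepressor genes 1 was higher in enrichment, Trim28 (0.55), and 5 were lower, led by Atrx (-0.99), beside 1.46% and 5.91% of all genes.

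In the Mettl3 set the targeted gene did not show the deletion. Mettl3 ranged from 274 through 489 to 931 normalised counts in the libraries labelled knockout and from 127 through 428 to 5370 in those labelled wild type, the highest being the first wild-type LT.HSC library. The reason was not tested, and the genotype is used below only as the label gives it. Of 123 members tested in input by limma, averaged over the 7 types, 1 was higher in the libraries labelled knockout (7.24% of all genes tested were) and 3 lower (2.89% were). At an unadjusted p under 0.05 there were 21 of the 123 members and 3939 of all 15030 genes tested. The median difference was -0.29 log2 units for members, -0.21 for the other Zfp genes and -0.06 for all genes tested, and 86 of 123 members were negative.

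Zfp783 fell most. The libraries labelled knockout ranged from 2.48 through 35.8 to 164 and those labelled wild type from 118 through 197 to 453. In all 7 cell types both knockout libraries lay below both wild-type ones, and 13 of the 14 lay below the lowest wild-type library of any type. The difference was -2.60 log2 units (SE 0.41, limma adjusted p = 0.000307). Zfp783 (chr6:47943175-47954549) overlaps the start of Zfp956 (chr6:47953390-47965300) in RefSeq, and the sources used here do not say whether counting used strand. Zfp956 differed by -0.10 (SE 0.22, adjusted p = 0.810).

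Zfp992 was the member that rose. Its libraries labelled knockout ranged from 31.9 through 129.7 to 354 and those labelled wild type from 0 through 38.2 to 186, with knockout above wild type in 6 of 7 types and overlap in GMP. The difference was 1.74 (SE 0.40, limma adjusted p = 0.00775). Zfp992 lies in the chromosome 4 cluster of similar copies, where reads may be split.

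Zfp943 ranged from 18.9 through 36.4 to 78.1 against 10.8 through 78.4 to 126, a difference of -0.94 (SE 0.29, limma adjusted p = 0.0447), and lost its call in 21 of 28 fits that left out 1 library. Zfp969 was near its detection limit, at most 3.36 against at most 18.5, with a difference of -1.71 (SE 0.46, adjusted p = 0.0208), and lost its call without the second wild-type MPP library. Where the 7 types were first averaged to 2 values against 2, none of the 4 calls held; the adjusted p was 0.0996 for Zfp783 and 0.219 for Zfp992. With the second ST.HSC knockout library left out, more members were lower, and the share of all genes in that fit is not given here.

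Within single cell types, limma called no member in any of the 7. Over all genes tested the share called was 0.539% in LT.HSC, 0.0133% in ST.HSC, 0.0133% in MPP, 0.00665% in CMP, 0% in GMP, 2.14% in MEP and 0.113% in MkP. Members at an unadjusted p under 0.05 numbered 12 in LT.HSC, 17 in ST.HSC, 12 in MPP, 1 in CMP, 1 in GMP, 2 in MEP and 10 in MkP, out of 123. In the same order, 2540, 1712, 1502, 254, 229, 1130 and 1422 of all 15030 genes tested did so. The members' median difference was -0.59 in ST.HSC and -0.81 in MPP, where all genes had -0.02 and -0.13 and the other Zfp genes -0.62 and -0.72. The libraries of a type differed by as much: the median log2 level of members was 4.76 in the first ST.HSC knockout library and 6.52 in the second.

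In the Mettl3 IPs, edgeR's quasi-likelihood test called none of 128 members (0.441% of all genes tested were higher and 0.155% lower). At an unadjusted p under 0.05 there were 14 members and 1921 of all 17463 genes tested. DESeq2 called 10 of the 115 members it gave an adjusted p (6.54% of all genes with one), namely Zfp746, Zfp764, Zfp783, Zfp788, Zfp953, Zfp969, Zfp979, Zfp990, Zfp992 and Zfp993. Zfp783 had a log2 difference of -1.68 (edgeR adjusted p = 0.222) and Zfp992 one of 1.29 (adjusted p = 0.173), the direction of each in input. For IP minus input, limma called 0 of 123 members and 0% of all genes in either direction. At an unadjusted p under 0.05 there were 8 members and 646 of all 15030 genes tested. The median difference was 0.18 for members and 0.05 for all genes tested. Input and IP were scaled separately in this set too, so IP minus input places each gene relative to the others. An even drop in m6A across genes would not show in IP minus input, and was not tested. Of the corepressor list, only Daxx passed in the Mettl3 input, higher by 0.49 (limma adjusted p = 0.0363), and none passed in the IP or the difference.

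In the Igf2bp2 set, Igf2bp2 itself had 61 and 81 unscaled counts in the libraries labelled knockout and 142 and 263 in the wild-type ones. Depth ran from 4681219 to 19984167 reads, the highest being that of the first wild-type library, which held the 142. Relative to depth, that library lay below both knockout libraries and the second wild-type library above both. Igf2bp2 thus did not separate the genotypes once depth was considered, and the genotype is used as the label gives it. None of 99 members tested was called by edgeR's quasi-likelihood test, where 0% of all genes was called in either direction. An unadjusted p under 0.05 was found for 12 members and for 777 of all 12221 genes tested. DESeq2 called 4 of the 112 members it gave an adjusted p (1.13% of all genes with one). Zfp719 had 54 and 125 counts in knockout and 1 and 1 in wild-type LT.HSC, and Zfp967 had 58 and 11 against 0 and 0. Zfp948 had 16 and 30 against 1163 and 228, and Zfp955b 0 and 2 against 651 and 100. In each of these 4 the groups did not overlap, with wide spread inside a group. How many of all genes were free of overlap was not counted. The first wild-type library was the deepest of the 4, at 19984167 reads, and these counts are not scaled for depth.

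The 3 h labelling set gives, per gene, the ratio of T-to-C conversions, which marks RNA made while 4sU was present. Members carried more newly made RNA than most genes. In CMP the median over members was 2.08% and 2.15% in the 2 libraries, against 0.941% and 0.948% over all genes listed. In MPP it was 2.45% and 2.40%, against 1.22% and 1.26%. In LT.HSC it was 0.959% and 0.462%, against 0.579% and 0.244%.

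The members' median was above that of all genes in each of the 12 libraries, and the other Zfp genes behaved alike. Set against genes of like input level, the 114 members with a value had a median ratio of 1.43, and 88 of them (77.2%) were above 1. For the other Zfp genes the ratio was 1.36 (72.1% above 1), and for all other genes 50.0% were above 1. Among the 66 members with a value above 0 in every library the ratio was 1.26. Differences among the 6 cell types were not called by limma's F test in any of 124 members (0% of all genes tested were called). The lowest adjusted p in that test was 0.0915, in Zfp866. An unadjusted p under 0.05 was found for 25 members and for 1695 of all 13909 genes tested.

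Of 106 members with a mean above 0 in all 6 types, Zfp703, a transcriptional cofactor, had the highest mean T-to-C ratio at 3.51% (SD over types 1.82). Its libraries were at 1.56% and 1.26% in LT.HSC, 4.44% and 4.66% in CMP and 10.4% and 1.88% in GMP, where the replicates disagreed most. Zfp870 (3.42%), Zfp747 (3.26%), Zfp983 (3.23%), Zfp715 (3.15%) and Zfp955a (3.09%) came next. The lowest were Zfp804b (0.0547%), Zfp750 (0.0765%), Zfp839 (0.381%), Zfp936 (0.387%), Zfp791 (0.443%) and Zfp931 (0.468%), of which Zfp804b and Zfp936 were too low in input to test.

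Zfp839 lay between 0.249% and 0.503% in all 12 libraries. The abundant Zfp706 had a mean of 1.21%. The GMP, LT.HSC and MEP replicates differed over all genes as well, so differences between types rest on libraries that vary widely within a type.

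**Figure D4:**
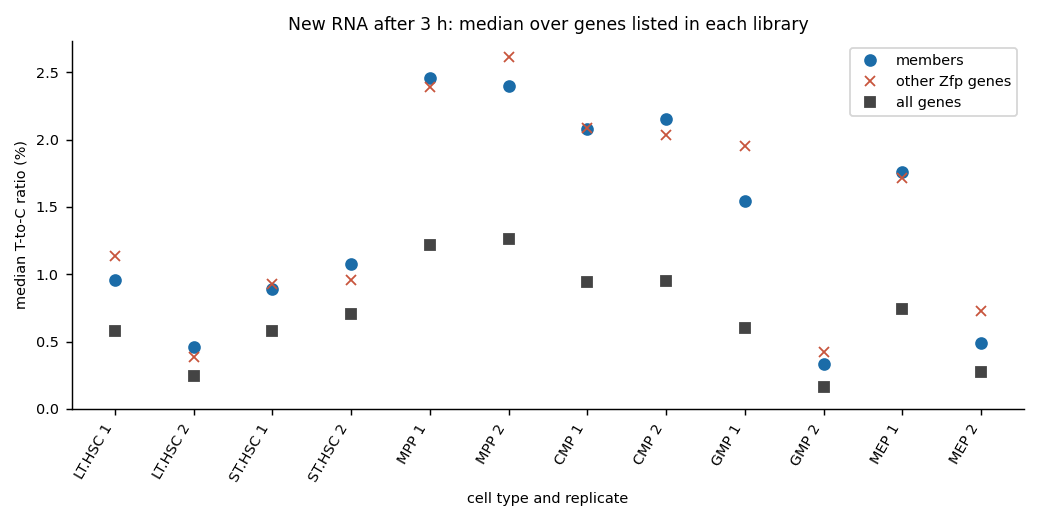
Median T-to-C ratio in percent (vertical axis) in the 12 libraries of the 3 h labelling (horizontal axis), over members (circles), other Zfp genes (crosses) and all genes (squares) listed in each. Members lie above all genes in every library and near the other Zfp genes.

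The chase tables list 84 members in LT.HSC and 81 in MkP, as the authors' averages, and how these were formed is not stated. The labels give 2 libraries per time in LT.HSC and 1 in MkP, and each table holds a single value per gene and time with no error, so no test was made. In MkP the median over listed members was 0.0347% after 0.5 h, 0.0237% after 1 h, 0.0441% after 3 h, 0.0177% after 6 h, 0.0205% after 9 h, 0.0105% after 12 h and 0.0157% after 24 h. Over all genes it went from 0.0697% at 0.5 h to 0.0158% at 24 h. The members' values thus did not fall at every step, and the number listed changed with time, from 44 at 1 h to 12 at 12 h.

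In LT.HSC the members' median was 0.0378% at 0.5 h, 0.233% at 1 h, 0.0342% at 3 h, 0.0264% at 6 h and 0.164% at 24 h, and all genes were also high at 1 h (0.161%) and 24 h (0.0919%). Only 6 members were listed at all 7 times in LT.HSC (Zfp740, Zfp800, Zfp873, Zfp975, Zfp991 and Zfp993) and 7 in MkP (Zfp804b, Zfp808, Zfp839, Zfp943, Zfp949, Zfp991 and Zfp993). Zfp993, which with Zfp991 was in both, went in MkP from 0.0745% at 0.5 h and 0.127% at 1 h to 0.0379% at 3 h, 0.0143% at 9 h, 0.00696% at 12 h and 0.0391% at 24 h. Zfp804b was listed at all 7 times in MkP although it had no read in any wild-type input library.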

How the data were processed

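Values deposited by the authors were used as they stand. The input tables hold a signal per gene as deposited by the authors, counts divided by library size factors judging from the values. From it whole reads were recovered for 100% of values (within 0.1 read) in all input libraries but the second GMP one. The wild-type IP and Igf2bp2 tables hold deposited read counts, and the Mettl3 IP table estimated counts deposited by the authors, rounded here. The labelling tables hold the authors' T-to-C ratio as a fraction, printed as percent. Per the submitters' processing notes, the build was GRCm38 and the tools included kallisto, Trimmomatic and fastp, with no version or role given.

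Members, lists and comparisons were chosen with earlier results of these data known. Genes needed 10 normalised counts in 2 libraries, and the new RNA test a value above 0 in 6. Input, enrichment and new RNA were tested with limma 3.58.1 on log2(value + 1) (log2 of percent + 0.1 for new RNA). The added constant pulls fold changes of low genes towards 0. It does so unevenly in the wild-type inputs, where 1 read was worth 0.412 to 11.6 units. Counts were tested with edgeR 4.0.16 quasi-likelihood, with DESeq2 1.42.0 as the alternative, in R 4.3.3. All p-values were adjusted by Benjamini-Hochberg over all genes tested, with a threshold of 0.05. Named members are the 6 highest and 6 lowest of each comparison past its threshold or, where there was no test, by mean, the 10 with most reads, and those with a role known from elsewhere; Zfp978, Zfp781, Zfp872 and Zfp956, and the members named in blocks, in the chase and by DESeq2, were chosen after their values were seen. Cell types were grouped as mature or stem and progenitor by their labels. Promoters and positions come from RefSeq (GRCm38.p6). Models were tested on simulated data. Protein domains were not analysed here. No 2 libraries were identical. Alternatives were another pseudocount, no filter, other scaling, other tools, a replicate block and leaving out libraries. The labels name no shared animal or batch behind replicate numbers, so libraries were not paired.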

Additional observations from a re-analysis of the deposited data

How the results depend on the processing

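The direction and call of Zfp758, Zfp964, Zfp773, Zfp820, Zfp786 and Zfp704 between mature and early types held in all 32 fits that left out 1 library. The counts that follow are of members only. Without the share of all genes in the same fits, their changes cannot be read as particular to the members. Leaving out 1 library moved the counts as follows: members differing among types 109 to 114, mature higher 37 to 44 and lower 34 to 39, LT.HSC higher 13 (first LT.HSC library) to 34 and lower 4 to 8, enrichment among types 18 to 56, mature enrichment higher 0 to 5 (first LMPP IP library) and lower 6 to 16 (first CD8 IP library), Mettl3 input higher 1 to 4 (second ST.HSC knockout or second LT.HSC wild-type library) and lower 1 (second MPP wild-type library) to 15 (second ST.HSC knockout library), Mettl3 IP 0 to 2 over 20 of the 28 libraries, drawn at random (first GMP or first LT.HSC knockout library), Mettl3 enrichment 0 to 0, Igf2bp2 0 to 0, new RNA 0 to 1 (first GMP library), and the like-level median 0.20 to 0.23 with 1 replicate.

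Without the Erythroid and Monocyte libraries, a choice made after seeing the data, LT.HSC lower became 10, mature enrichment higher 1 and lower 12. Without CD4, CD8 and Monocyte, also chosen after seeing the data, enrichment differed among types in 16 and was lower in mature types in 3. A pseudocount of 10 gave 1 member higher in mature enrichment and, in the Mettl3 input, 2 higher and 5 lower; 2-against-2 means gave 0 and 0 there, and edgeR on recovered reads 2 higher. No filter gave 1 member in the Mettl3 IP and 1 in the Igf2bp2 set, and DESeq2 10 and 4. An input of at least 50 lowered the like-level median to 0.11. The causes were not tested, and neither was the part of depth in the low members.

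With a replicate block the Mettl3 input gave 2 higher (Zfp775 gained, at 1.11) and also called Zfp825 (-0.69), the Mettl3 IP gave 1 (Zfp990), and no other count moved by over 1.5 times. Replicate 2 minus replicate 1 had a median correlation between groups of 0.0036 in the wild-type inputs, 0.16 in the Mettl3 inputs (57 of 91 pairs over 0.1, the highest 0.49) and 0.07 in the Mettl3 IPs (31 of 91 over 0.1). Same-numbered Mettl3 libraries thus deviated together in part, but not in every pair, so the numbers were not taken as pairs.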
